A study of Mus musculus with 16 samples.

Results

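A set of 10 mouse genes for taking up debris and dead cells was followed: the scavenger receptor genes Msr1, Marco, Olr1, Mrc1 and Stab1, the receptor tyrosine kinase genes Mertk and Axl, their ligand gene Gas6, the lipid-sensing receptor gene Trem2 and the scramblase gene Xkr8. They were picked by gene name, 10 of 56748 genes in the count table. All 10 symbols matched 1 gene each. The cells were bone marrow-derived macrophages, wild type, from 4 male C57BL6 mice, differentiated in medium conditioned by L929 cells. Each mouse gave 1 library to each of 4 groups, so that a mouse number means the same animal throughout. The SR9009 + LPS group received 10 µM SR9009 for 16 hours and then 100 ng/mL lipopolysaccharide (LPS) for 6 hours. The LPS group is labelled with LPS alone (100 ng/mL for 6 hours) and the SR9009 group with SR9009 alone (10 µM for 16 hours). The DMSO group is labelled with the vehicle. SR9009 is a small-molecule agonist of REV-ERBα and REV-ERBβ, nuclear receptors of the circadian clock, and LPS, from the outer membrane of bacteria, is sensed through Toll-like receptor 4. Poly(A) RNA of each culture was sequenced in bulk, so fewer cells expressing a gene and less RNA per cell cannot be told apart.

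Scavenger receptors are surface proteins that bind modified lipoproteins, bacterial surfaces, collagen fragments and other debris and carry them into the cell. Efferocytosis is the uptake of dying cells. A dying cell exposes phosphatidylserine after caspases cleave XKR8, a lipid scramblase of the plasma membrane. GAS6 binds that lipid as well as the kinases MERTK and AXL, and so bridges the dying cell to the macrophage. TREM2 binds lipids and lipoproteins and signals through the adaptor DAP12 (Tyrobp). Macrophages are the main cells of the body that do this work, and resident and inflammatory macrophages differ in which of these receptors they carry.

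Libraries held 12616442 to 24214863 counts and 13298 to 18947 genes with a count. The SR9009 library of mouse 1 was the lowest in both. On the second principal component of the tested genes (23.1% of the variance) it lay at −185, against −32.2 to 38.7 for the other 15 libraries. It takes part in the shared estimate of spread in every test, so member results and list counts that change without it are also given without it. Of 8 defining macrophage markers all were tested. Their summed level was 10762 to 11223 CPM (counts scaled to library size, as in edgeR's cpm) in SR9009 + LPS cells, 11491 to 12327 CPM in LPS cells, 5502 to 8868 CPM in SR9009 cells and 7101 to 11054 CPM in DMSO cells. The markers did not move together. Csf1r was at 1762 to 2338 CPM in LPS cells, against 3047 to 5823 CPM in DMSO cells. Adgre1, Itgam, Fcgr1, Cd14 and Spi1 were above their DMSO ranges in LPS cells, and Cd68 and Lyz2 overlapped theirs. Lyz2, the lysozyme gene of myeloid cells and usually abundant in macrophages, was at 9.22 to 54.7 CPM over the 16 libraries. Of 10 neutrophil markers, Ly6g and Retnlg were at 0 in all libraries. S100a8 was at 1.83 to 6.71 CPM in LPS cells, against 0.132 to 0.346 CPM in DMSO cells. Camp was at 0.333 to 0.986 CPM in LPS cells and at most 0.0658 CPM in DMSO cells. The neutrophil list summed to 51.6 CPM in the SR9009 library of mouse 1, against at most 19.5 CPM in the other SR9009 libraries and at most 17.9 CPM in DMSO cells, mostly from Mmp8. Markers of T and NK cells, erythroid cells, megakaryocytes and mast cells summed to at most 1.24 CPM in any library. Of the 6 endothelial markers Kdr carried most of the sum, with 91.7 to 186 CPM in LPS cells, against 6.48 to 17.2 CPM in DMSO cells. Of the 6 stromal markers Pdgfrb carried most of the sum, and the list reached 3.58 to 9.12 CPM in SR9009 + LPS cells, 6.66 to 15.8 CPM in LPS cells, 0.203 to 2.52 CPM in SR9009 cells and 1.08 to 2.91 CPM in DMSO cells. The 8 dendritic cell markers summed to 2.03 to 8.65 CPM in LPS cells, against 1.12 to 2.73 CPM in DMSO cells, and the 6 B cell markers to 0.305 to 0.749 CPM in LPS cells, against 1.54 to 1.87 CPM in DMSO cells. The part of these lists in the results was not tested.

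The stretch around the transcription start, 250 bases before it and 50 after, was in RefSeq's table for 8 of the 10 genes, not for Msr1 and Xkr8. Shown are a pair of genes that were higher with LPS (Olr1, Axl) and a pair that were lower (Gas6, Trem2), to let the opposite directions of the receptor Axl and its ligand Gas6 be read beside their start sites. Sequences run 5′ to 3′ along the gene and come from RefSeq on GRCm38.p6, an older build than the GRCm39 of the count table. Olr1 is chr6:129507116-129507415 (minus strand), Axl is chr7:25788684-25788983 (minus strand), Gas6 is chr8:13494486-13494785 (minus strand) and Trem2 is chr17:48346151-48346450 (plus strand). Capitals mark matches on either strand to the AP-1 site TGANTCA, the nuclear receptor element AGGTCA (read as TGACCT on the other strand) and the GC box GGGCGG (read as CCGCCC on the other strand).
Olr1: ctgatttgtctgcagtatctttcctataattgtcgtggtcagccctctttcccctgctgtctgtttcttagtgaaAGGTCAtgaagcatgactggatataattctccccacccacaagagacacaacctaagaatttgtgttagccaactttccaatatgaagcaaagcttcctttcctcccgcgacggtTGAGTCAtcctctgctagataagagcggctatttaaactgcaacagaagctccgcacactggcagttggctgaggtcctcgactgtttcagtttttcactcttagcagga
Axl: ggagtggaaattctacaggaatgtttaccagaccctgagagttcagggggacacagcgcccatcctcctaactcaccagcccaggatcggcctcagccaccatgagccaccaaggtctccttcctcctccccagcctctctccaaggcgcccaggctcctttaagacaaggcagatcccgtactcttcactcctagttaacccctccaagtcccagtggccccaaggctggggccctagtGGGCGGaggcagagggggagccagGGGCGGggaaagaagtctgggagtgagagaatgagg
Gas6: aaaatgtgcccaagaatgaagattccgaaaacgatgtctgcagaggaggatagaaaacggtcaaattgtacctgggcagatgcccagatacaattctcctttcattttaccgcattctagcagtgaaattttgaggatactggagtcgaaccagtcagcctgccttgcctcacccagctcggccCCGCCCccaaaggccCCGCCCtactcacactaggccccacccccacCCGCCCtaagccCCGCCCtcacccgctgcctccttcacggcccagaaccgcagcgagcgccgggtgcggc
Trem2: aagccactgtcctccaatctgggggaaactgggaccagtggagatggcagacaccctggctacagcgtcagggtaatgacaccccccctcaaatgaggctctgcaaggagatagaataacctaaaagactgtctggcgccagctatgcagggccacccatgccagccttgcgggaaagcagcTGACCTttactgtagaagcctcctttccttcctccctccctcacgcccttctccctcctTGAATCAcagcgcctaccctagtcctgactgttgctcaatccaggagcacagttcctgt
Olr1 held an AP-1 match at −60 and an AGGTCA match at −175 from the start. Trem2 held an AP-1 match at −9 and an AGGTCA match on the other strand at −68. Axl had 2 GC boxes and Gas6 had 4. Of the others, Mertk had 4 GC boxes, Mrc1 had 1, and Marco and Stab1 matched none of the motifs searched. Among 32851 RefSeq promoters of the same length, 7.81% held an AP-1 match, 16.3% an AGGTCA match and 35.7% a GC box. None of the 8 matched the ISRE core, the PU.1 core GAGGAAGT, the E-box CACGTG or the NF-kB consensus, which 3.44%, 3.20%, 7.15% and 8.46% of promoters held. No searched motif overlapped another in these 8 windows. Such matches describe letters in the window, and no match says only that these letters are not there.

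LPS changed most of the 10 genes and split them. Msr1, Marco, Axl and Xkr8 rose, and Mrc1, Gas6 and Trem2 fell. Mertk and Stab1 did not pass the test, though each passed in some alternative fits. The scarce Olr1 was higher too, but its selection by the filter on low counts favoured that. In LPS against DMSO cells 39.8% of the 13438 tested genes passed at an adjusted p of 0.05 (edgeR quasi-likelihood test, Benjamini-Hochberg), 19.4% higher and 20.4% lower. Olr1 passed the filter on low counts only through LPS-treated libraries, so its selection favoured a rise and it is not counted here. Of the other 9 genes, 4 rose, by 1.45 to 4.63 on the log2 scale, and 3 fell, at −1.88 to −1.31. Their median of −0.81 was the value of Stab1, which did not pass, and describes no shift shared by the 9. Over all tested genes the median was −0.08. In SR9009 + LPS against SR9009 cells 30.3% of tested genes passed, 14.5% higher and 15.8% lower, and of the same 9 genes 4 rose and 2 fell. These 2 comparisons share no library, but they share the 4 mice and the estimate of spread over 16 libraries, so they are not independent. None of the 10 passed in SR9009 against DMSO cells, where 0.878% of tested genes passed (0.313% higher, 0.566% lower). Nor did any in SR9009 + LPS against LPS cells, where 1.79% passed (1.06% higher, 0.737% lower). At such shares 0 of 10 says little about these genes. Without the SR9009 library of mouse 1, Msr1 passed in SR9009 + LPS against LPS cells, when 11.7% of tested genes did. With mouse as a block as well, 1 of the 10 passed higher and 2 lower, when 21.5% of tested genes passed. At an unadjusted p under 0.05, Msr1 and Axl were past it in SR9009 against DMSO and Msr1 and Mertk in SR9009 + LPS against LPS, as were 1570 and 1818 of the 13438 tested genes.

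**Figure D1:**
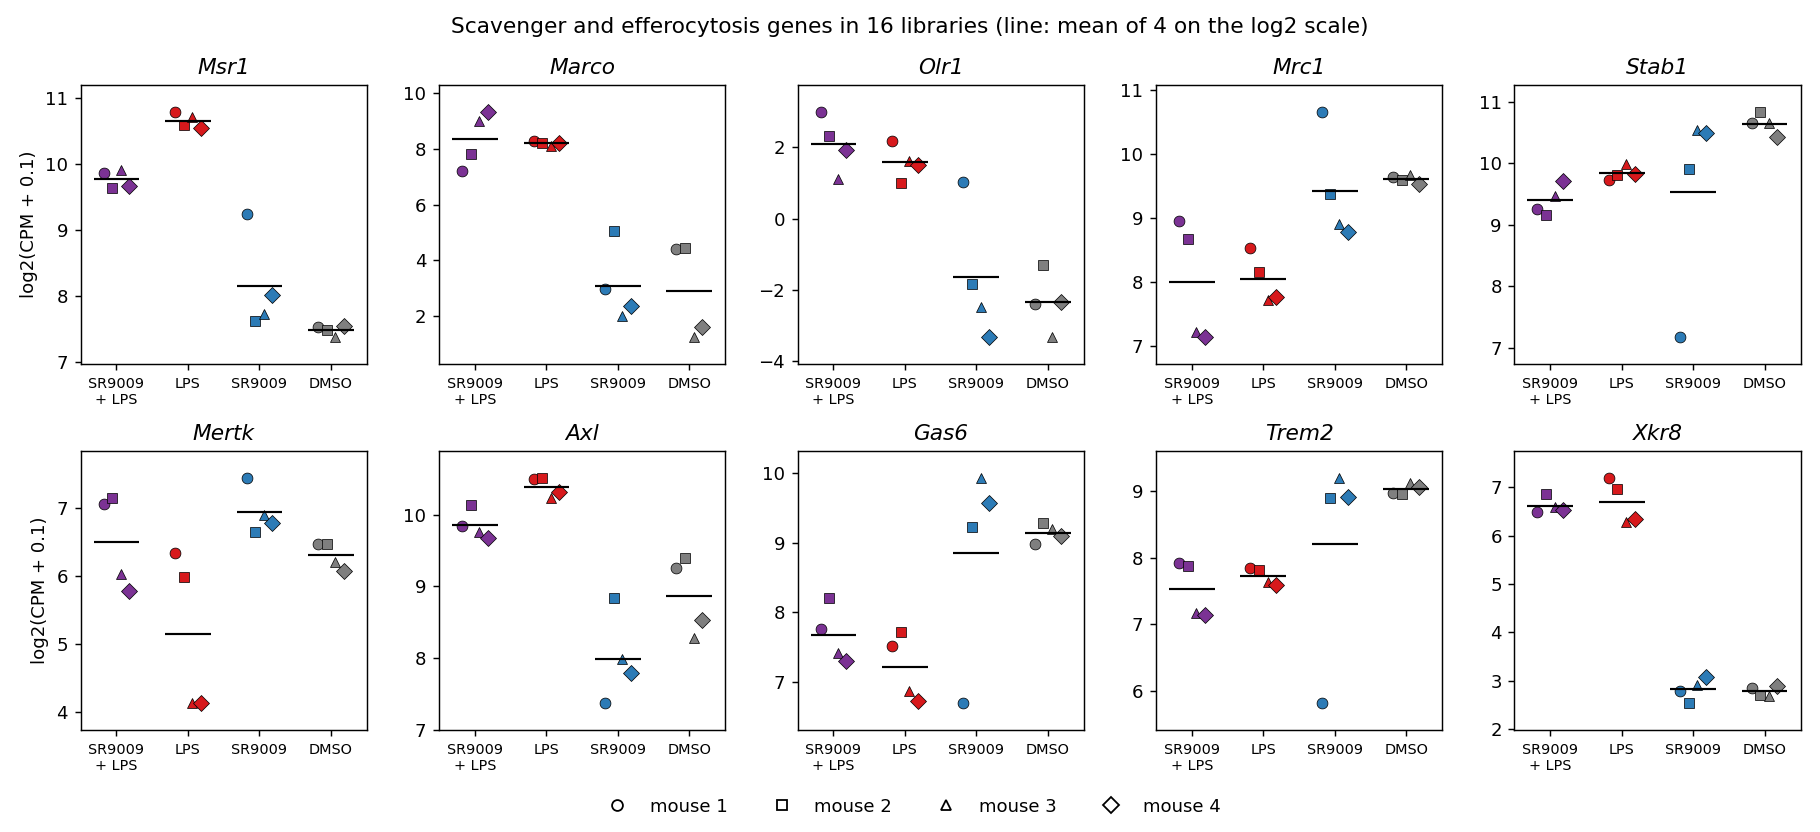
Level of each gene in each of the 16 libraries, as log2(CPM + 0.1), in SR9009 + LPS, LPS, SR9009 and DMSO cells; symbols mark mice 1 to 4 and lines the mean of 4 on that scale. Msr1, Marco, Axl and Xkr8 are higher in both LPS-treated groups, Gas6 and Trem2 are mostly lower there, and the SR9009 library of mouse 1 (circle) lies away from mice 2 to 4 for several genes, such as Msr1 at 603 CPM and Trem2 at 56.3 CPM.

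Msr1 encodes the class A scavenger receptor of macrophages, which binds modified low-density lipoprotein (ENSMUSG00000025044, GRCm39 chromosome 8, 40034726 to 40095714, minus strand). It stood at 931, 792, 959 and 814 CPM in SR9009 + LPS cells of mice 1 to 4, at 1768, 1536, 1674 and 1499 CPM in LPS cells, at 603, 196, 210.2 and 258 CPM in SR9009 cells and at 184, 178, 165 and 186 CPM in DMSO cells. The 4 groups did not overlap, and within SR9009 cells mouse 1 lay far above mice 2 to 4. Msr1 rose to 1619 ± 125 CPM in LPS cells, against 178 ± 9.40 CPM in DMSO cells (SD, n = 4 each), a log2 fold change of 3.18 (SE 0.31, adjusted p = 1.17e-06). It rose in SR9009 + LPS against SR9009 cells by 1.46 (SE 0.29, adjusted p = 0.00115), and by 2.05 (SE 0.14, adjusted p = 9.85e-08) without the SR9009 library of mouse 1.

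The LPS-induced level of Msr1 was lower where SR9009 had come first. It averaged 874 ± 83.3 CPM in SR9009 + LPS cells and 1619 ± 125 CPM in LPS cells, 54.0% on the fitted scale, and the 2 groups did not overlap. The mice agreed closely, with differences between −0.95 and −0.80 on the log2 scale. The log2 fold change of −0.89 (SE 0.29) did not pass over 16 libraries (adjusted p = 0.142). Without the SR9009 library of mouse 1, which is in neither of these groups but enters the estimate of spread, it was −0.86 (SE 0.12, adjusted p = 7.73e-04), and 11.7% of all tested genes then passed. In the fit of these 2 groups alone the adjusted p was 0.014, and with mouse as a block over 16 libraries it was 0.0703. The difference passed in 4 of 30 alternative settings, and the adjusted p reached 0.558 in the others.

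Without LPS the difference ran the other way. Msr1 was higher in SR9009 than in DMSO cells of each mouse, by 0.83 (SE 0.29, adjusted p = 0.274), and by 0.27 (SE 0.13, adjusted p = 0.540) without mouse 1's SR9009 library. The difference between both SR9009 effects, with LPS minus without, was −1.72 (SE 0.40) over 16 libraries, with an adjusted p of 0.199. Of all tested genes 0.00744%, a lone gene, passed that test. Without the SR9009 library of mouse 1 it was −1.12 (SE 0.18, adjusted p = 0.0196), when 0.409% of genes passed, and with DESeq2 on 16 libraries −1.76 (adjusted p = 0.0204). Msr1 was the only one of the 10 to pass it in any setting tried, and did so in 3 of 29 alternative settings.

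Marco encodes a collagen-like class A scavenger receptor that binds bacteria and particles (ENSMUSG00000026390, GRCm39 chromosome 1, 120402267 to 120432753, minus strand). Marco stood at 149, 222, 512 and 639 CPM in SR9009 + LPS cells of mice 1 to 4, at 312, 296, 272 and 297 CPM in LPS cells, at 7.66, 32.8, 3.91 and 5.11 CPM in SR9009 cells and at 20.9, 21.5, 2.27 and 2.96 CPM in DMSO cells. The LPS libraries were the most even, and DMSO cells of mice 1 and 2 lay far above those of mice 3 and 4. Marco rose by 4.63 on the log2 scale in LPS against DMSO cells (SE 0.86, adjusted p = 4.83e-04) and by 4.94 in SR9009 + LPS against SR9009 cells (SE 0.87, adjusted p = 4.66e-04), the largest rises of the 10 genes in both comparisons over 16 libraries. With like levels in all LPS libraries, the difference from DMSO was 3.90 and 3.78 in mice 1 and 2, against 6.84 and 6.60 in mice 3 and 4. In SR9009 + LPS against LPS cells the mice went opposite ways, at −1.07 and −0.42 in mice 1 and 2 and 0.91 and 1.10 in mice 3 and 4, and the fold change of 0.37 (SE 0.74) did not pass (adjusted p = 0.902).

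Olr1 encodes LOX-1, a lectin-like receptor for oxidised low-density lipoprotein (ENSMUSG00000030162, GRCm39 chromosome 6, 129462207 to 129484128, minus strand). It was rare throughout: 7.81, 4.83, 2.05 and 3.67 CPM in SR9009 + LPS cells of mice 1 to 4, 4.41, 1.90, 2.96 and 2.71 CPM in LPS cells, 1.95, 0.183, 0.0805 and 0 CPM in SR9009 cells and 0.0910, 0.308, 0 and 0.0986 CPM in DMSO cells. The groups held 313, 164, 35 and 13 counts in all. Every LPS-treated library lay above every DMSO library, and among SR9009 cells mouse 1 alone reached the lowest LPS value. The 0 in the SR9009 library of mouse 4 allows up to 0.102 CPM (3 counts), and that in the DMSO library of mouse 3 about the same. Olr1 passed the count filter only through LPS-treated libraries, so its selection favoured a difference between cells with and without LPS. The adjusted p values given here are therefore no support for a rise. Its log2 fold change was 4.55 (SE 1.08, adjusted p = 0.00335) in LPS against DMSO cells. For SR9009 + LPS against SR9009 cells it was 3.22 (SE 0.98, adjusted p = 0.0203), and 5.71 (SE 0.83) without the SR9009 library of mouse 1. Leaving out mouse 2, 3 or 4, SR9009 library 2 or 3 or SR9009 + LPS library 1 took the adjusted p of that comparison to between 0.0509 and 0.130.

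Mrc1 encodes CD206, the mannose receptor, an endocytic lectin of resident-like macrophages (ENSMUSG00000026712, GRCm39 chromosome 2, 14234203 to 14336868, plus strand). Mrc1 stood at 494, 407, 149 and 141 CPM in SR9009 + LPS cells of mice 1 to 4, at 372, 285, 210.4 and 218 CPM in LPS cells, at 1609, 660.3, 482 and 439 CPM in SR9009 cells and at 800.4, 773, 815 and 739 CPM in DMSO cells. Every LPS library lay below every DMSO library, and mice 1 and 2 lay above mice 3 and 4 in every group but DMSO. Mrc1 fell to 271 ± 75.0 CPM in LPS cells, against 782 ± 33.4 CPM in DMSO cells (SD, n = 4 each), a log2 fold change of −1.53 (SE 0.45, adjusted p = 0.0126). Without mouse 2 or without mouse 3 that adjusted p was 0.0716 and 0.0637.

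Mrc1 also fell in SR9009 + LPS against SR9009 cells (log2 fold change −1.42, SE 0.45, adjusted p = 0.0242), and was lower in 4 of 4 mice though the groups overlapped across mice. Without the SR9009 library of mouse 1 the fold change was −0.75 (SE 0.38, adjusted p = 0.124), and with mouse as a block as well −1.07 (adjusted p = 0.00937). Without mouse 2, 3 or 4, or the SR9009 + LPS library of mouse 3 or 4, the adjusted p was between 0.0691 and 0.0837. SR9009 against DMSO gave 0.03 (SE 0.44, adjusted p = 0.982) with that library and −0.61 (SE 0.39, adjusted p = 0.731) without it. Mouse 1 alone was higher there, and mice 2 to 4 were lower.

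Stab1 encodes stabilin-1, a multi-domain scavenger receptor that also binds phosphatidylserine (ENSMUSG00000042286, GRCm39 chromosome 14, 30860970 to 30890598, minus strand). Stab1 stood at 615, 574, 705 and 837 CPM in SR9009 + LPS cells of mice 1 to 4, at 850.2, 898, 1019.8 and 907 CPM in LPS cells, at 144, 961, 1486 and 1439 CPM in SR9009 cells and at 1610.3, 1824, 1616 and 1375 CPM in DMSO cells. LPS libraries lay below all DMSO libraries and above all SR9009 + LPS libraries. The log2 fold change of LPS against DMSO was −0.81 (SE 0.44, adjusted p = 0.162) over 16 libraries. Without the SR9009 library of mouse 1 it was −0.82 (SE 0.16, adjusted p = 4.20e-04), when 57.6% of all tested genes passed. SR9009 + LPS against LPS gave −0.43 (SE 0.44, adjusted p = 0.763), lower in 4 of 4 mice. SR9009 + LPS against SR9009 gave −0.56 (SE 0.44, adjusted p = 0.365), and −0.86 (SE 0.17, adjusted p = 7.54e-04) without the SR9009 library of mouse 1, when 43.7% of tested genes passed. The gene overlaps Nt5dc2 on the other strand, which held 47240 counts over 16 libraries beside 378686 for Stab1, and with the strand setting of the counting not given, reads of the 2 cannot be told apart where they overlap.

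The TAM kinases and their ligand did not move together. Axl rose with LPS, Gas6 fell, and Mertk was lower but passed only in some fits, such as that with mouse as a block. Axl encodes the kinase of this family that inflammatory macrophages carry (ENSMUSG00000002602, GRCm39 chromosome 7, 25456698 to 25488130, minus strand). It stood at 918, 1121, 866 and 818 CPM in SR9009 + LPS cells of mice 1 to 4, at 1442, 1459.8, 1204 and 1269.6 CPM in LPS cells, at 165, 456, 253 and 221 CPM in SR9009 cells and at 608, 674, 312 and 369.7 CPM in DMSO cells. No library of either LPS-treated group overlapped its group without LPS. Axl rose to 1344 ± 127 CPM in LPS cells, against 491 ± 177 CPM in DMSO cells (SD, n = 4 each), a log2 fold change of 1.45 (SE 0.30, adjusted p = 0.00125). It rose by 1.77 in SR9009 + LPS against SR9009 cells (SE 0.31, adjusted p = 3.97e-04).

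Axl was lower with SR9009 in each mouse, with LPS and without it. The log2 fold change was −0.53 (SE 0.30, adjusted p = 0.473) in SR9009 + LPS against LPS cells, where the groups did not overlap, and −0.84 (SE 0.30, adjusted p = 0.294) in SR9009 against DMSO cells, where they did. With mouse as a block and without the SR9009 library of mouse 1, these were −0.51 (adjusted p = 0.0328) and −0.65 (adjusted p = 0.0516), while 21.5% and 4.39% of all tested genes passed. The difference between the 2 effects was 0.31 (SE 0.42, adjusted p = 0.937).

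Mertk encodes the kinase through which resting macrophages take up apoptotic cells (ENSMUSG00000014361, GRCm39 chromosome 2, 128540876 to 128644814, plus strand). Mertk stood at 133, 140.4, 65.0 and 54.5 CPM in SR9009 + LPS cells of mice 1 to 4, at 80.5, 62.8, 17.4 and 17.3 CPM in LPS cells, at 173, 99.4, 118 and 109.7 CPM in SR9009 cells and at 88.3, 88.3, 73.6 and 66.9 CPM in DMSO cells. In both LPS-treated groups mice 1 and 2 lay above mice 3 and 4. LPS libraries of mice 3 and 4 were far below all DMSO libraries, and that of mouse 1 lay within the DMSO range. The differences from DMSO were −0.13 and −0.49 in mice 1 and 2, against −2.07 and −1.94 in mice 3 and 4 on the log2 scale. The fold change was −0.83 (SE 0.45, adjusted p = 0.158), and with mouse as a block −1.09 (adjusted p = 0.0186), when 45.0% of all tested genes passed. Leaving out mouse 1 gave −1.26 (adjusted p = 0.045), and leaving out its LPS library alone −1.29 (adjusted p = 0.0401).

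Among the 10 genes Mertk had the largest difference between SR9009 + LPS and LPS cells. It averaged 98.2 ± 44.7 CPM in SR9009 + LPS cells and 44.5 ± 32.1 CPM in LPS cells (SD, n = 4 each), higher in 4 of 4 mice by 0.72 to 1.89 on the log2 scale, though the groups overlapped across mice. The log2 fold change of 1.14 (SE 0.45) did not pass (adjusted p = 0.259). With mouse as a block it was 1.27 (adjusted p = 0.0543), and without the SR9009 library of mouse 1 as well 1.30 (adjusted p = 0.0188). Mertk was also higher in SR9009 than in DMSO cells of each mouse and the groups did not overlap, with a fold change of 0.66 (SE 0.45, adjusted p = 0.592). SR9009 + LPS cells differed from SR9009 cells by −0.35 (SE 0.45, adjusted p = 0.602).

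Gas6 encodes the bridging ligand of both kinases, a vitamin K-dependent secreted protein (ENSMUSG00000031451, GRCm39 chromosome 8, 13515374 to 13544490, minus strand). Gas6 stood at 217, 295, 171 and 157 CPM in SR9009 + LPS cells of mice 1 to 4, at 183, 211, 117 and 105 CPM in LPS cells, at 103, 601, 978 and 762 CPM in SR9009 cells and at 504, 622, 590.5 and 547 CPM in DMSO cells. Every LPS-treated library lay below every DMSO library, and the SR9009 library of mouse 1 was lower still than all of them. Gas6 fell to 154 ± 51.2 CPM in LPS cells, against 566 ± 51.4 CPM in DMSO cells (SD, n = 4 each), a log2 fold change of −1.88 (SE 0.47, adjusted p = 0.00442). It fell by 1.54 in SR9009 + LPS against SR9009 cells (SE 0.46, adjusted p = 0.0187), and by 1.83 (SE 0.27, adjusted p = 7.44e-05) without the SR9009 library of mouse 1. Without mouse 2, 3 or 4, SR9009 library 3 or SR9009 + LPS library 3 or 4, that adjusted p was between 0.0519 and 0.185. SR9009 + LPS cells were above LPS cells in 4 of 4 mice, with a log2 fold change of 0.44 (SE 0.45, adjusted p = 0.761).

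Trem2 encodes a receptor for lipids and lipoproteins on macrophages and microglia (ENSMUSG00000023992, GRCm39 chromosome 17, 48653429 to 48661175, plus strand). Trem2 stood at 243, 236, 144 and 141 CPM in SR9009 + LPS cells of mice 1 to 4, at 229, 226, 199 and 193 CPM in LPS cells, at 56.3, 479.7, 589 and 485 CPM in SR9009 cells and at 506, 496, 559.7 and 535 CPM in DMSO cells. All LPS-treated libraries lay below all DMSO libraries. SR9009 cells of mice 2 to 4 were near the DMSO level, and mouse 1 had the lowest value of all 16 libraries. Trem2 fell to 212 ± 18.3 CPM in LPS cells, against 524 ± 28.9 CPM in DMSO cells (SD, n = 4 each), a log2 fold change of −1.31 (SE 0.45, adjusted p = 0.0302). That call was lost in 12 of 30 alternative settings, 10 of them with a mouse or library left out, at adjusted p of 0.0506 to 0.144. Without the SR9009 library of mouse 1 it was −1.32 (SE 0.18, adjusted p = 2.26e-05), and SR9009 + LPS against SR9009 moved to −1.37 (SE 0.19, adjusted p = 4.88e-05), against −1.08 (SE 0.45, adjusted p = 0.0828) with it. SR9009 + LPS against LPS gave −0.15 (SE 0.44, adjusted p = 0.946).

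Xkr8 encodes the caspase-activated scramblase that exposes phosphatidylserine on dying cells (ENSMUSG00000037752, GRCm39 chromosome 4, 132452208 to 132459857, minus strand). Xkr8 stood at 89.5, 116, 96.2 and 92.1 CPM in SR9009 + LPS cells of mice 1 to 4, at 146, 125, 77.7 and 81.8 CPM in LPS cells, at 6.76, 5.70, 7.41 and 8.33 CPM in SR9009 cells and at 7.10, 6.38, 6.35 and 7.27 CPM in DMSO cells. Both LPS-treated groups lay far above both others, and within each pair of groups the values overlapped. Xkr8 rose to 108 ± 33.5 CPM in LPS cells, against 6.78 ± 0.476 CPM in DMSO cells (SD, n = 4 each), 15.9-fold on the fitted scale (log2 3.99, SE 0.24, adjusted p = 1.64e-08). Its rise in SR9009 + LPS against SR9009 cells was 3.80 (SE 0.23, adjusted p = 3.87e-08). SR9009 made a log2 difference of −0.13 (SE 0.21, adjusted p = 0.870) with LPS and of 0.06 (SE 0.21, adjusted p = 0.927) without. The SR9009 library of mouse 1 did not stand apart for this gene.

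**Figure D2:**
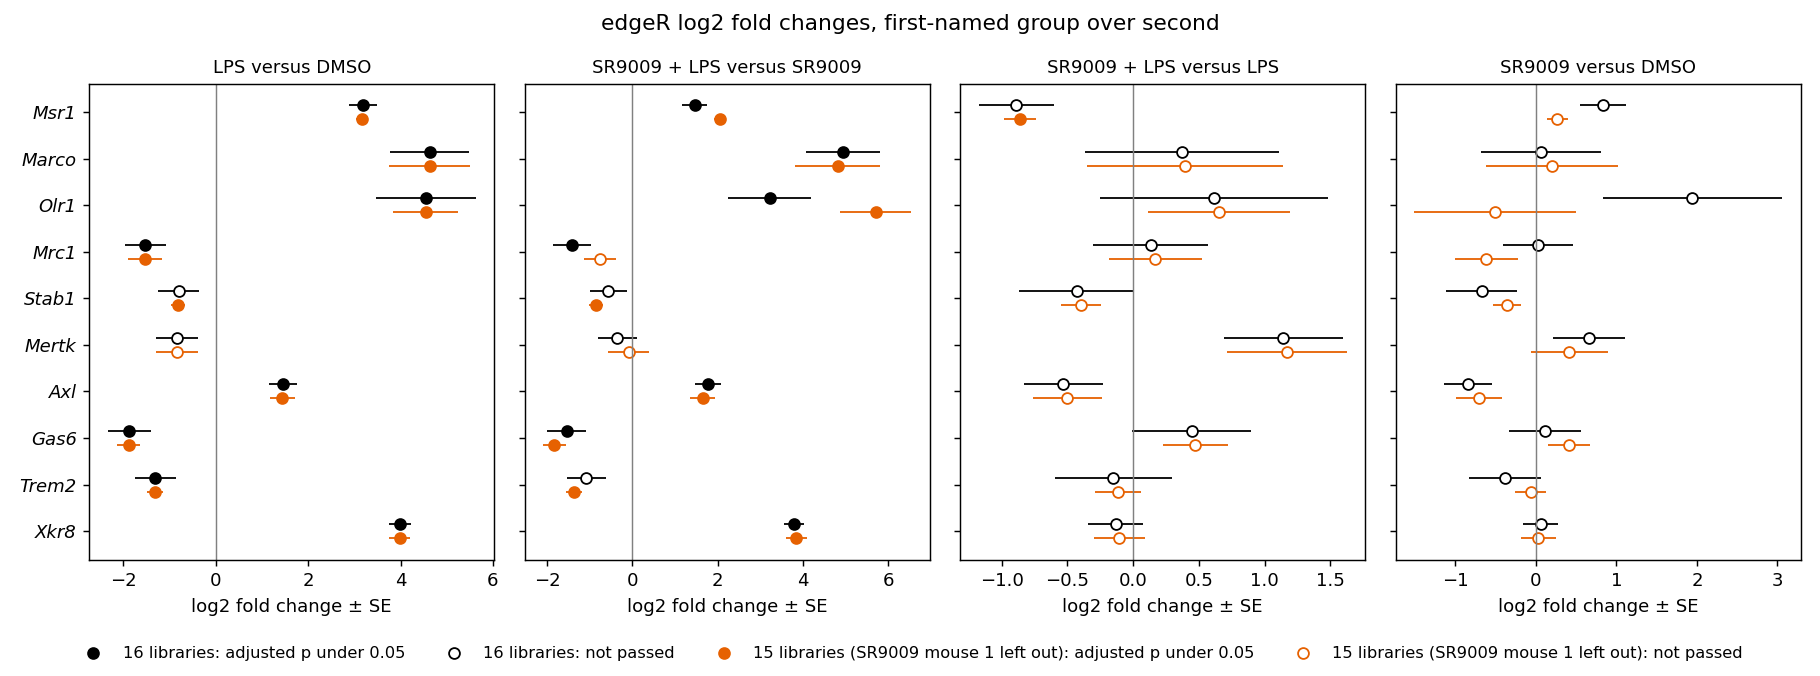
Log2 fold change ± SE of each gene in LPS against DMSO, SR9009 + LPS against SR9009, SR9009 + LPS against LPS and SR9009 against DMSO cells, in 16 libraries (black) and without the SR9009 library of mouse 1 (orange); filled points passed an adjusted p of 0.05. Xkr8, Marco and Olr1 lie furthest to the right in both LPS comparisons, and in the SR9009 comparisons the only filled point is Msr1 at −0.86 without that library.

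Within the LPS-treated groups, mice 1 and 2 lay above mice 3 and 4 for most of these 10 genes. The genes share their libraries, so the counts in this paragraph only describe them. The share over all tested genes was not counted. Deviations from group means over all tested genes split the mice in the same way. Between SR9009 + LPS and LPS libraries of different mice they correlated at 0.25 to 0.52 within mice 1 and 2 or 3 and 4. Across these pairs of mice they correlated at −0.57 to −0.32. The split is thus not particular to these 10 genes. In SR9009 + LPS cells mice 1 and 2 both lay above mice 3 and 4 for 6 of the 10 genes and below for 2, and in LPS cells above for 6 and below for 1. In SR9009 and in DMSO cells it was above for 3 of the 10 each, and below for 4 and for 1. The labels name no litter, day or batch for the mice. For Msr1, Axl and Mertk the 4 mice lay on the same side within each of the 2 SR9009 comparisons, with LPS and without, whereas Marco, Mrc1, Trem2, Olr1 and Xkr8 had mice on both sides in each of the 2 SR9009 comparisons. Gas6 had 4 mice on 1 side with LPS and was split without it, and so was Stab1.

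**Figure D3:**
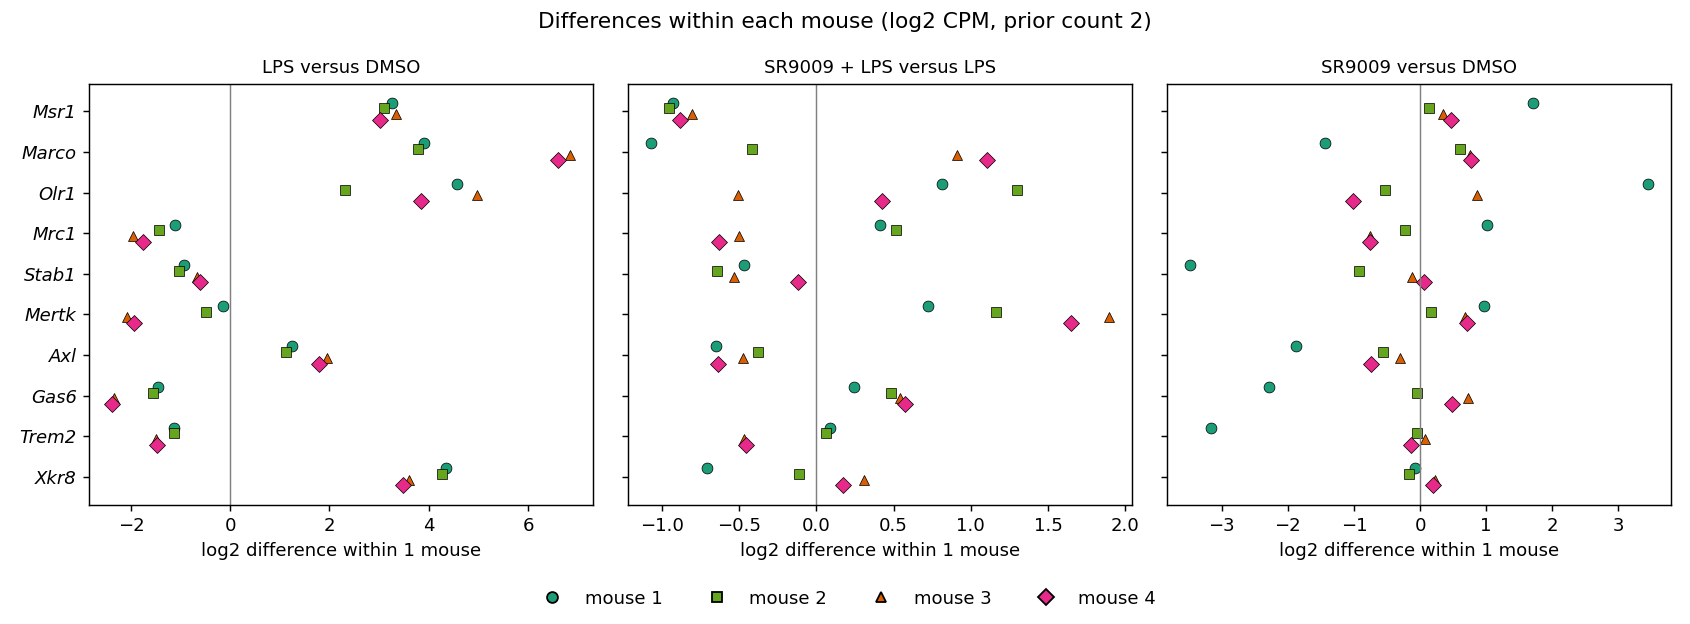
Log2 difference within each mouse (log2 CPM with a prior count of 2) for LPS against DMSO, SR9009 + LPS against LPS and SR9009 against DMSO cells; each symbol is 1 mouse. Msr1 in SR9009 + LPS against LPS cells clusters between −0.95 and −0.80, Marco splits from −1.07 to 1.10 there, and mouse 1 (circle) lies at the edge for most genes in SR9009 against DMSO cells.

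Levels of different genes were compared per kilobase, with the deposited FPKM. In DMSO cells the order was Gas6 (216 ± 19.9 FPKM), Stab1 (152 ± 16.9), Mrc1 (119 ± 4.37), Trem2 (103 ± 5.81), Axl (94.7 ± 33.9), Msr1 (27.3 ± 1.52), Mertk (17.8 ± 2.35), Marco (5.99 ± 5.39), Xkr8 (1.53 ± 0.112) and Olr1 (0.0339 ± 0.0354; SD, n = 4). Neighbours in that order did not overlap except Trem2 with Axl and Marco with Xkr8. In LPS cells Axl (269 ± 30.6 FPKM) and Msr1 (257 ± 23.6) were the highest and overlapped, followed by Marco at 154 ± 11.3 FPKM. Stab1 (89.6 ± 5.81) and Gas6 (61.1 ± 21.3) came next and did not overlap, and from Gas6 through Trem2, Mrc1 and Xkr8 to Mertk (10.4 ± 7.69) each neighbour overlapped. The gene at the top of the list in DMSO cells, Gas6, was thus the fifth in LPS cells.

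In SR9009 + LPS cells Marco (195 ± 117 FPKM) and Axl (183 ± 28.3) were the highest and overlapped, and Msr1 was the third at 136 ± 12.9 FPKM with no overlap with Axl or Gas6. In SR9009 cells Gas6 (225 ± 134 FPKM) and Mrc1 (123 ± 92.3) led, and the neighbours from Gas6 down to Mertk all overlapped. Across groups, the order of group means of each gene was the same in CPM and FPKM for 10 of 10 genes.

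**Figure D4:**
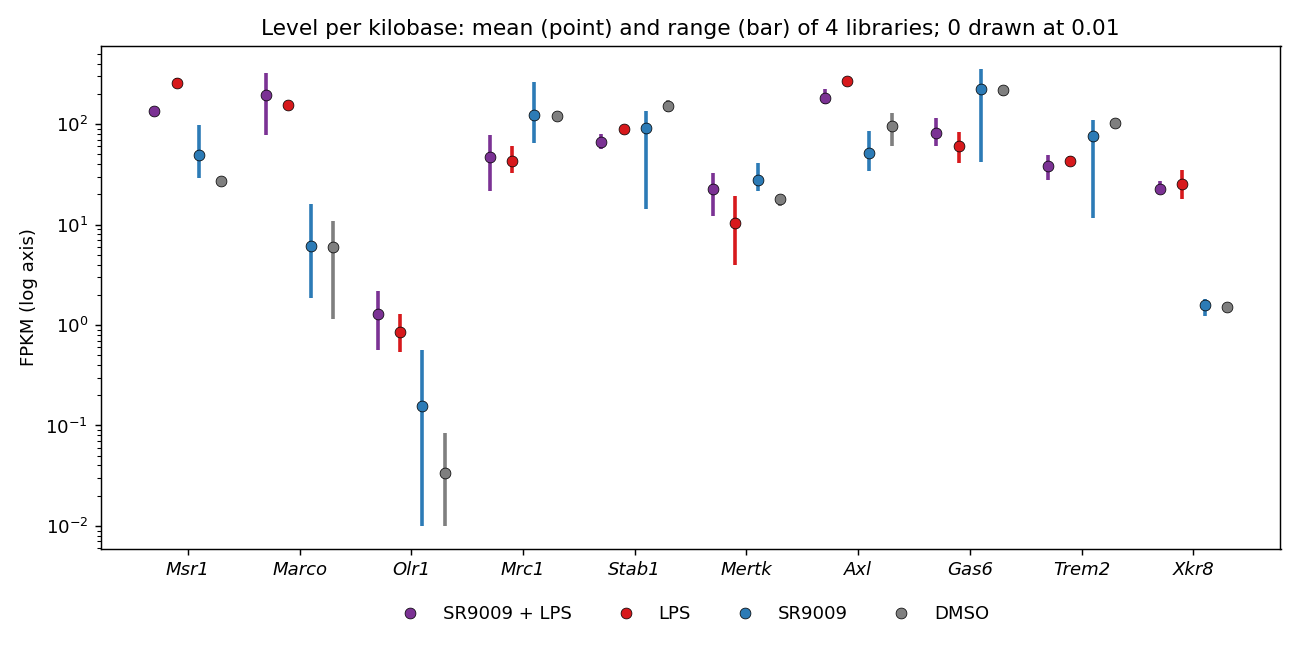
Level per kilobase (FPKM, log axis) of each gene in SR9009 + LPS, LPS, SR9009 and DMSO cells; points are means and bars the range of 4 libraries, with a library at 0 drawn at 0.01. Gas6 has the highest mean in DMSO cells (216 FPKM), Axl in LPS cells (269 FPKM), and Olr1 the lowest in all 4 groups.

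The other genes of these pathways were counted from lists, with up to 3 passing genes per list and comparison named by the smallest adjusted p. In LPS against DMSO cells 19.4% of all tested genes rose and 20.4% fell, the background of each count here. Megf11, Trem3 and Pecam1 had passed the count filter only through LPS-treated libraries, and Itgb3 and Clec1a only through libraries without LPS. The selection of these 5 genes favoured a difference, and they are in no count between cells with and without LPS. Among 13 other scavenger receptor genes 3 rose and 2 fell in LPS against DMSO cells (median log2 fold change −0.08). Cd163, the haemoglobin-haptoglobin receptor, fell to 2.75 ± 0.664 CPM in LPS cells, against 26.1 ± 3.15 CPM in DMSO cells (log2 −3.24, adjusted p = 5.31e-08). Colec12, a collectin with scavenger activity, fell by 1.38, and Ssc5d, a soluble scavenger receptor protein, rose by 2.17. Cd36, a receptor for oxidised lipoproteins and fatty acids, was over the 16 libraries the only gene of all 8 lists to pass in SR9009 against DMSO cells. It stood at 301 ± 93.3 CPM in SR9009 cells and 124 ± 28.9 CPM in DMSO cells (log2 1.28, SE 0.29, adjusted p = 0.0470). Of all tested genes 0.878% passed in that comparison, so 1 call over 8 lists says little about them. Panx1, of the list around phosphatidylserine exposure, passed there too without the SR9009 library of mouse 1 (log2 1.39, adjusted p = 0.0331), when 1.83% of tested genes did. Scarf2, a class F scavenger receptor gene, was the only one of the scavenger receptor list to pass in SR9009 + LPS against LPS cells. Of all tested genes 1.79% passed there. Scarf2 fell to 0.849 ± 0.480 CPM in SR9009 + LPS cells, against 10.0 ± 4.88 CPM in LPS cells (log2 −3.55, adjusted p = 0.0192).

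Of 13 other receptors and bridging proteins for apoptotic cells, 1 rose and 5 fell in LPS against DMSO cells (median −0.17). Among all tested genes 19.4% rose and 20.4% fell. Havcr2 (TIM-3, which binds phosphatidylserine) fell to 2.61 ± 0.524 CPM in LPS cells, against 35.7 ± 7.76 CPM in DMSO cells (log2 −3.77, adjusted p = 3.10e-07). Cd300a, an inhibitory phosphatidylserine receptor, fell by 2.84. Anxa1, a phosphatidylserine-binding annexin, was the 1 that rose, by 1.41. Of the same 13 genes, 1 rose and 5 fell in SR9009 + LPS against SR9009 cells (median −0.16), with Havcr2 at −3.09 and Cd300a at −2.80. Among all tested genes 14.5% rose and 15.8% fell there. None of the 14 tested genes, Itgb3 included, passed in SR9009 against DMSO or SR9009 + LPS against LPS cells. There 0.878% and 1.79% of all tested genes passed.

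Of 17 tested genes of the engulfment machinery, 5 rose and 2 fell in LPS against DMSO cells (median 0.22). This is near the share of all tested genes that passed there, 39.8% (19.4% higher, 20.4% lower). Dock1, the Rac activator that works with ELMO, fell by 1.48 (adjusted p = 4.52e-05), Mapk14 (p38α) fell by 1.29, and Rab5a, of the early phagosome, rose by 1.14. Of 13 genes around phosphatidylserine exposure 6 rose and 1 fell (median 0.74). The scramblase-family gene Plscr1 rose by 1.77, while Panx1, a caspase-opened channel that releases find-me signals, fell by 1.94 (adjusted p = 4.92e-04). Panx1 was the 1 gene of that list to pass in SR9009 + LPS against LPS cells, where 1.79% of all tested genes passed. It rose to 44.1 ± 22.6 CPM in SR9009 + LPS cells, against 5.77 ± 0.752 CPM in LPS cells (log2 2.93, SE 0.37, adjusted p = 0.00101).

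Of 15 genes of TREM2 signalling and shedding 7 rose and 1 fell with LPS against DMSO (median 0.63). Among all tested genes 19.4% rose and 20.4% fell. Ms4a6d, of the family that modulates TREM2, rose to 1411 ± 53.0 CPM in LPS cells, against 258 ± 33.5 CPM in DMSO cells (log2 2.45, adjusted p = 1.53e-06). The signalling gene Vav1 rose by 1.54. Of 8 genes of the mannose receptor family and other C-type lectins 3 rose and 2 fell (median 0.41). Clec4e (Mincle, a sensor of dead cells and mycobacterial glycolipid) rose by 4.37 and Pla2r1, a relative of Mrc1, by 3.21, and Clec7a (Dectin-1, a beta-glucan receptor) fell by 1.96.

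Of 6 genes that act as brakes on engulfment 4 rose and 1 fell in LPS against DMSO cells (median 1.22). Among all tested genes 19.4% rose and 20.4% fell there. The inhibitory receptor gene Pirb rose by 1.91 and Pilra by 2.56. Of 11 nuclear receptor and MAF factor genes 2 rose and 2 fell (median 0.27). Rxra, the partner of many nuclear receptors, fell to 23.5 ± 3.19 CPM in LPS cells, against 108 ± 30.0 CPM in DMSO cells (log2 −2.19, adjusted p = 2.77e-04). The lipid-sensing receptor gene Nr1h3 (LXRα) rose by 2.13 and the macrophage factor Maf by 0.89. Maf fell to 463 ± 147 CPM in SR9009 + LPS cells, against 1038 ± 249 CPM in LPS cells (log2 −1.16, SE 0.28, adjusted p = 0.0414). It was the 1 of its list to pass that comparison, where 1.79% of all tested genes passed. In SR9009 + LPS against SR9009 cells where 14.5% of all tested genes rose and 15.8% fell, the TREM2 signalling list had 7 genes that rose and 2 that fell, and no list other than that and the apoptotic cell receptors had over 4 that rose or over 3 that fell. Without the SR9009 library of mouse 1, when 57.6% of tested genes passed in LPS against DMSO cells, the engulfment machinery had 7 that rose and 4 that fell, the phosphatidylserine list 8 and 3, the nuclear receptor list 4 and 2, the brakes 4 and 2, the TREM2 signalling list 7 and 2, the other scavenger receptors 3 and 3 and the lectins 4 and 2. When 43.7% passed, in SR9009 + LPS against SR9009 cells without that library, the phosphatidylserine list had 6 that rose and 0 that fell, the engulfment machinery 5 and 3, the other scavenger receptors 2 and 4, the nuclear receptor list 2 and 4, the apoptotic cell receptors 2 and 5, the lectins 4 and 1, the brakes 3 and 2 and the TREM2 signalling list 7 and 1. In SR9009 + LPS against LPS cells, when 11.7% passed, the other scavenger receptors then had 2 that rose and 3 that fell, and each other list at most 1 that rose and 2 that fell. No gene of any list passed the 16-library test of the difference between the SR9009 effects, where 959 of the 13438 tested genes had an unadjusted p under 0.05. Without that library 1 of the 14 other scavenger receptor genes passed it, lower.

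By Pearson correlation of log2 CPM over the 16 libraries, the genes most like each of 9 members were searched among 9394 others (Olr1 was too low). These libraries share 4 treatments and 4 mice, so the values describe likeness of pattern only. Nearest to Msr1 were Ywhaz (r = 0.989), Sptlc2 and Klra2, to Marco Kif3c (r = 0.978), Acod1 and Saa3, and to Xkr8 Dgkh (r = 0.990), Nos2 and Clic4. Nearest to Axl were Rnf114 (r = 0.988), Tapbp and Fcgr1, and to Gas6 Tmem86a (r = 0.974), Gng7 and Gpr162. Nearest to Mrc1 were Rnase4 (r = 0.969), Cytip and Ckap2, and to Mertk Rap2a (r = 0.944), Mxi1 and Nedd4l, the lowest of these values. Nearest to Trem2 were Urod (r = 0.980), Dalrd3 and Galnt2, and to Stab1 Ccdc12 (r = 0.971), Ctdsp1 and Ccm2. The order of likeness changed without the SR9009 library of mouse 1. Rnf114 for Axl and Clic4 for Xkr8 were the nearest then, and Galnt2 took rank 48 for Trem2, the lowest of these genes. For Stab1 the value of Ccdc12 was 0.931 over those 15 libraries, at rank 12.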

How the data were processed

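The submitters' processing notes name HISAT2 and the mouse build GRCm39 (mm39). The version of HISAT2, how counts were made, with or without strand, and on which annotation is not given in the sources used. The authors deposited raw counts per gene for 16 libraries, with gene names, coordinates and lengths per the file headers. The authors also deposited FPKM values (fragments per kilobase, scaled per library) in 1 file per library, and in each library count over length divided by FPKM was 1 constant.

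Counts were tested with edgeR 4.0.16 (R 4.3.3, limma 3.58.1): 13438 genes passed filterByExpr (minimum count 10, minimum total 15), TMM factors were 0.738 to 1.26, and robust quasi-likelihood fits gave each group its own mean over 16 libraries. P-values were adjusted by Benjamini-Hochberg over all tested genes, with a threshold of 0.05. SE stands for the absolute log2 fold change divided by the root of the F statistic. CPM uses TMM-scaled totals. FPKM served to order genes and as an alternative with a pseudocount of 1. The steps were tested on simulated data with a fixed spread, no mouse effect and no outlying library. That test therefore does not cover these features of the data.

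Per the labels, each mouse number is 1 animal. In 24 pairs of libraries of 1 mouse, deviations from group means correlated at 0.0809 to 0.560 (median 0.249). In 72 pairs of different mice they correlated at −0.567 to 0.522 (median −0.0899). Over 0.1 were 22 of the 24 and 15 of the 72. All of these 15 joined mouse 1 with mouse 2 or mouse 3 with mouse 4. The ranges for the same and for different mice overlap, so the pairing rests on the labels. The fit with mouse as a block is given where it changes a call. Alternatives were upper-quartile and RLE scaling, a stricter or no filter, the block, the compared groups alone, leaving out each mouse or library, limma-voom, limma on log2 FPKM and DESeq2 1.42.0. Figures were drawn with Python 3.11.15, pandas 2.3.3, numpy 2.4.6 and matplotlib 3.10.9.

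All 10 genes are described. Of the other lists, up to 3 passing genes with the smallest adjusted p per comparison could be named, and for likeness the 3 protein-coding genes with the highest correlation, at a mean of at least 5 CPM. Genes, lists and rules were chosen with earlier results of these data known. A gene that the naming rule would give is not reported here.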

Additional observations from a re-analysis of the deposited data

Results flagged for a closer look

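Of 40 sets of 4 libraries (10 genes in 4 groups), 3 held a library whose gap to its nearest neighbour exceeded Dixon's critical share of the range of the set, where chance gives about 1 in 20. All 3 were in SR9009 cells. Msr1 was highest in mouse 1, at 603 CPM against 196 to 258 CPM in the other mice, a gap of 0.849 of the range. Olr1 was highest in mouse 1, at 1.95 CPM against 0 to 0.183 CPM, a gap of 0.906. Marco was highest in mouse 2, at 32.8 CPM against 3.91 to 7.66 CPM, a gap of 0.870.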

How the results depend on the processing

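Of all tested genes, LPS against DMSO called 5352, and 8747 with mouse as a block and without the SR9009 library of mouse 1, and 8109 in the compared groups alone. SR9009 + LPS against SR9009 called 4070, and 6786 and 2222 in those fits. SR9009 + LPS against LPS called 241, and 149 with no filter, 535 with the block, 2893 with the block and without that library, 417 in the compared groups alone and 706 with DESeq2. SR9009 against DMSO called 118, and 198 with the block, 590 with both changes, 4 in the compared groups alone and 331 with DESeq2. The difference of SR9009 effects called 1, and 15 with the block, 272 with both changes, 0 with limma-voom (959 at an unadjusted p under 0.05 in edgeR), 52 with limma on FPKM and 103 with DESeq2. Leaving out a mouse or library gave 3513 to 7742, 2430 to 5879, 9 to 1577, 1 to 246 and 0 to 55 calls for these 5 comparisons.

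Among the 10 genes, both changes together (block, and without the SR9009 library of mouse 1) called 5 lower in LPS against DMSO, 4 lower in SR9009 + LPS against SR9009, 1 higher and 2 lower in SR9009 + LPS against LPS and 1 lower for the difference of effects, which DESeq2 also gave as 1. The compared groups alone called 1 lower in SR9009 + LPS against LPS and 0 lower in SR9009 + LPS against SR9009, where limma-voom and limma on FPKM called 1 each. Leaving out a mouse or library gave 5 called higher and 1 to 5 lower in LPS against DMSO. In SR9009 + LPS against SR9009 it gave 4 to 5 higher and 0 to 4 lower. Olr1 was among the genes counted in both, though its selection favoured a rise. The same fits gave 0 to 1 lower in SR9009 + LPS against LPS and for the difference of effects, and 0 in SR9009 against DMSO. Mouse as a block changed 1 call of a member in all, that of Mertk.

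The results that changed sign had not passed in either setting. In SR9009 against DMSO, Mrc1 was −0.038 with no filter, −0.22 with the block, −0.51 with both changes, −0.0020 in the compared groups alone, −0.18 with limma-voom and −0.20 on FPKM. Gas6 was −0.28 with limma-voom and −0.30 on FPKM, Marco −0.023 with the block and Olr1 −0.31 with both changes. In SR9009 + LPS against LPS, Mrc1 was −0.0054 with the block, −0.050 with limma-voom and −0.064 on FPKM. For the difference of effects, with both changes Trem2 was −0.12, Stab1 −0.0019 and Olr1 0.82, Olr1 was 0.13 on FPKM and Marco −0.12 with limma-voom. With a mouse or library left out, ranges that crossed 0 in SR9009 against DMSO were −0.21 to 0.41 for Gas6, −1.10 to 0.62 for Marco, −0.61 to 0.23 for Mrc1, −0.61 to 3.20 for Olr1 and −0.033 to 0.15 for Xkr8. In SR9009 + LPS against LPS they were −0.00032 to 0.70 for Marco, −0.22 to 0.37 for Mrc1 and −0.26 to 0.13 for Xkr8. For the difference of effects they were −0.15 to 1.47 for Marco, −0.25 to 0.78 for Mrc1, −2.78 to 1.16 for Olr1, −0.038 to 0.53 for Stab1, −0.13 to 0.53 for Trem2 and −0.32 to 0.080 for Xkr8. The cause was not tested. Upper-quartile scaling moved the median of all genes in LPS against DMSO to −0.28 (2126 called higher and 3459 lower), against −0.08 (2611 and 2741), and in SR9009 + LPS against SR9009 to −0.25 (1706 and 2779), against −0.12 (1944 and 2126), with no direction of the 10 genes turned by it or by RLE scaling. Olr1 rests on 13 to 313 counts a group.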
